A study of Mus musculus with 6 samples.

Results

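The non-coding snoRNA host transcripts Gas5, Snhg1, Snhg3, Snhg5, Snhg6, Snhg8, Snhg12 and Zfas1 were examined in fetal liver (FL) cells of wt mice and of mice with a conditional deletion of the splice regulator hnRNP L. The 8 genes were taken from a list of symbols, matched to mouse Ensembl identifiers through the GENCODE M21 annotation of GRCm38, and looked up in the gene counts and in the exon bin counts. Gas5, Snhg3, Snhg5, Snhg12 and Zfas1 were found in both, so that 5 of the 8 listed genes were measured among 38293 genes. The M21 identifiers of Snhg1, Snhg6 and Snhg8 were not among those counted, and these 3 transcripts were not analysed here by their own identifiers.

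The RNA came from Lin-cKit+ cells, a sorted population rich in hematopoietic stem and progenitor cells, of FLs at embryonic day 14.5 (E14.5). Single C57BL/6 embryos gave 3 wt and 3 hnRNP L deficient libraries. The deficient embryos were VavCre+hnRNP Lfl/fl, with Cre recombinase driven by the Vav promoter in hematopoietic cells. The labels give no allele of the controls beyond wild-type, while a figure legend of the paper marks the wt RNA-seq samples as Lfl/fl. The labels also name the tissue as whole embryo although the source is given as FL cells. The question was whether the host transcripts differed in level or in exon usage between the genotypes.

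Small nucleolar RNAs (snoRNAs) guide chemical modification and processing of ribosomal RNA. Most vertebrate snoRNAs are cut out of introns of a host gene, and in the hosts described here the introns carry the snoRNAs while the spliced exons encode no long conserved protein. The spliced exons carry short reading frames that end far upstream of the last exon junction, and such transcripts are typically removed by nonsense-mediated decay (NMD), the translation-dependent pathway that degrades mRNAs with premature stop codons. Many of these hosts also start with a run of pyrimidines, the 5′ terminal oligopyrimidine (5′TOP) motif that they share with mRNAs of the translation machinery. Their steady-state level therefore depends on transcription and on decay, and RNA-seq of one time point measures neither rate.

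The annotated starts of the measured hosts are shown first because a pyrimidine run of the 5′TOP type would lie at the start in use. Each line gives 40 bases of GRCm38.p6 from the RefSeq promoter table, 10 before the annotated start and 30 from it onward, 5′ to 3′ on the strand of the gene, with the longest run of C and T near the start in capitals.
Gas5, downstream start, chr1:161035156-161035195, + strand: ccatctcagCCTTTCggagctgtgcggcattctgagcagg
Snhg3, chr4:132353657-132353696, - strand: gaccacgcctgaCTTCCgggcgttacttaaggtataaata
Snhg5, chr9:88522868-88522907, - strand: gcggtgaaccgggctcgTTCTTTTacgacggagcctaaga
Snhg12, chr4:132308668-132308707, + strand: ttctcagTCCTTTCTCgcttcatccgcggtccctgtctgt
Zfas1, chr2:167062924-167062963, + strand: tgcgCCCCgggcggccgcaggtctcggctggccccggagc
The run had to overlap the stretch from 5 bases before to 15 bases after the start and was searched on the strand of the gene. It need not lie at the first base of a transcript. Of the runs shown, those of Gas5 and Snhg12 span the annotated start. Those of Snhg3 and Snhg5 begin after it, and that of Zfas1 ends before it. The run was longest in Snhg12, with 9 bases, a length reached by 7.85% of 32851 promoters in the same window. The other annotated start of Gas5, upstream, had a run of 3 bases, reached by 82.6% of promoters. Runs of 7 bases in Snhg5, 6 at the downstream start of Gas5, 5 in Snhg3 and 4 in Zfas1 were reached by 18.5%, 28.7%, 44.1% and 63.4% of promoters. Of the hosts without counts, Snhg1 had a run of 9 bases and Snhg8 one of 7.

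One or 2 intronic snoRNAs of each measured host are given next, since they are what these genes are known for. The sequences are from the GENCODE M21 transcripts on GRCm38, 5′ to 3′. Capitals mark box C (TGATGA) and box D (CTGA), the protein-binding boxes of snoRNAs that guide methylation, or the ACA trinucleotide near the 3′ end of snoRNAs of the pseudouridylation class.
Snord47, in Gas5, chr1:161038082-161038158, + strand: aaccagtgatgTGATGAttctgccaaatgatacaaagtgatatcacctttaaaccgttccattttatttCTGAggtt
Snord50a, in Snhg5, chr9:88521529-88521600, - strand: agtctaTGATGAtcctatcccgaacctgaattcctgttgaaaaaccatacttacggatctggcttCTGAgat
Snord50b, in Snhg5, chr9:88521797-88521868, - strand: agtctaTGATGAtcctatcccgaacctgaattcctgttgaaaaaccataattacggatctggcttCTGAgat
Snord99, in Snhg12, chr4:132310691-132310764, + strand: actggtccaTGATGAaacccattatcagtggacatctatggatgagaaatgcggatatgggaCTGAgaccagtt
Snord12, in Zfas1, chr2:167065276-167065365, + strand: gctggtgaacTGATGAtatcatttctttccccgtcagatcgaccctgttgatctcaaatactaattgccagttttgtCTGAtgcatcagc
Snora73a, in Snhg3, chr4:132352775-132352979, - strand: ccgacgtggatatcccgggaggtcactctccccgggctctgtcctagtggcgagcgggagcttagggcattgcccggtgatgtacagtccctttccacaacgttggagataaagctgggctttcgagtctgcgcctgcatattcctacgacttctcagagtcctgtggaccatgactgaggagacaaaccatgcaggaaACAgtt
The 8 listed hosts held 32 annotated snoRNA entries within their spans, with the overlapping entries of Snord80 and of Snora16a each counted. Both boxes, box C within 16 bases of the 5′ end and box D within 15 bases of the 3′ end of the transcript strand, were found in 20 of them, or 62.5%, beside 20.2% of all 1507 annotated snoRNA transcripts. The ACA trinucleotide within 8 bases of the 3′ end was found in 6, or 18.8%, beside 46% of all annotated snoRNA transcripts. The pair in Snhg5 differed at 1 of 72 positions, and Snora73a and Snora73b of Snhg3 at 7 of 205, so that reads from these copies could be split or lost in counting.

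The gene counts summed to between 55952160 and 76157226 reads per library, and 3 reads are worth 0.0402 to 0.0540 CPM (the deposited counts divided by the TMM-normalized library size and scaled per 1000000 reads). Hnrnpl itself was at 552, 531 and 528 CPM in the wt libraries and at 242, 288 and 270 in the hnRNP L deficient libraries (log2 fold change -1.01, SE 0.088, edgeR quasi-likelihood adjusted p = 0.00724). The deficient mean was thus 49.7% of wt. The authors raise the possibility that incompletely deleted cells with residual protein remained and obscured the RNA-seq, which was not tested here. Progenitor markers summed to 1113 to 1598 CPM in wt and 882 to 994 in deficient libraries. Of the 6, 4 fell in edgeR, beside 9.85% of all tested genes. Among them was Kit, the receptor used for sorting, from 423 to 656 CPM in wt to 325 to 368 CPM in deficient libraries. The summed markers of granulocytes and monocytes ranged from 595 to 8060 CPM in wt, with wt replicate 2 at the top, and from 244 to 808 in deficient libraries, and wt replicate 2 therefore stood apart. Hepatocyte markers summed to 118 to 248 CPM in wt and to 21.9 to 75.5 in deficient libraries. All 8 were lower in every deficient library than in any wt library, beside 22.7% of all tested genes. The 7 lymphoid markers summed to 5.35 to 27.1 CPM in wt and to 1.85 to 3.01 in deficient libraries. Of the 4 tested, 2 fell, beside 9.85% of all tested genes, and Dntt had no read in any library. The erythroid markers overlapped, at 2433 to 2828 CPM in wt and 2276 to 3094 in deficient libraries.

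Snhg5 was the host that rose. It lies at chr9:88521050-88522929 on the minus strand of GRCm38 and carries Snord50a and Snord50b. The wt libraries were at 154, 112 and 121 CPM, in the order of the replicates, and the hnRNP L deficient ones at 180, 184 and 195 CPM. All deficient libraries were above all wt libraries, and wt replicate 1 was the highest of the controls. The means were 129 ± 22.1 CPM (SD, n = 3) and 186 ± 7.95 CPM (SD, n = 3), a 1.44-fold difference (log2 fold change 0.53, SE 0.12, edgeR adjusted p = 0.0303). The value without wt replicate 2 was 0.44 (SE 0.10, edgeR adjusted p = 0.0236). The call was lost when wt replicate 3 or any deficient replicate was left out, with log2 fold changes from 0.49 to 0.56 and edgeR adjusted p-values from 0.0938 to 0.127, and in those fits at most 15 of all tested genes rose.

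Snhg12 and Snhg3 lie close to each other on chromosome 4, on opposite strands. Snhg12, at chr4:132308623-132311024, carries Snora16a, Snora44, Snora61 and Snord99 and was at 98.0, 76.1 and 83.5 CPM in wt and at 101, 108 and 115 CPM in deficient libraries. The groups did not overlap, but wt replicate 1 and deficient replicate 1 were only a few CPM apart. The difference did not pass (log2 fold change 0.33, SE 0.11, edgeR adjusted p = 0.0706). It passed in edgeR without wt replicate 1 (0.44, adjusted p = 0.0160), in DESeq2 (0.34, adjusted p = 0.0317) and in limma-voom (0.38, adjusted p = 0.00941).

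Snhg3, at chr4:132348014-132353686, carries both copies of Snora73, the snoRNA also known as U17, which acts in cleavage of precursor ribosomal RNA. It was at 89.5, 79.1 and 79.6 CPM in wt and at 93.0, 104 and 112 CPM in deficient libraries. Here too all deficient libraries were above the controls, and the test fell short of the threshold (log2 fold change 0.31, SE 0.093, edgeR adjusted p = 0.0546). It passed in edgeR without a filter on low counts (0.34, adjusted p = 0.0470) and without wt replicate 1 (0.38, adjusted p = 0.0274), in DESeq2 (0.32, adjusted p = 0.0173) and in limma-voom (0.38, adjusted p = 0.0109). Snhg3 shares 135 exon bases with Rcc1, the exchange factor of the GTPase Ran, on the same strand, and 705 exon bases with the antisense gene Gm17300. Whether the counting used strand is not given in the sources used here, and reads from antisense partners cannot then be told apart.

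Zfas1, the host of Snord12 at chr2:167062934-167065862, was at 161, 155 and 158 CPM in wt and at 165, 188 and 189 CPM in deficient libraries. The wt values were close together, and deficient replicate 1 lay just above them. The log2 fold change was 0.20 (SE 0.077, edgeR adjusted p = 0.110), and 82 exon bases overlap Znfx1 on the other strand. Limma-voom with sample weights gave 0.23 with an adjusted p of 0.0333.

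Gas5, growth arrest-specific transcript 5, was the most abundant host and the one whose groups overlapped. It lies at chr1:161034422-161038539, and its exon bin unit merges 10 genes, the host and the snoRNA genes in its introns. The wt libraries held 756, 788 and 773 CPM and the deficient libraries 713, 876 and 877. Deficient replicate 1 was the lowest of all 6 and the other deficient replicates were the highest. The log2 fold change was 0.09 (SE 0.10, edgeR adjusted p = 0.545).

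**Figure D1:**
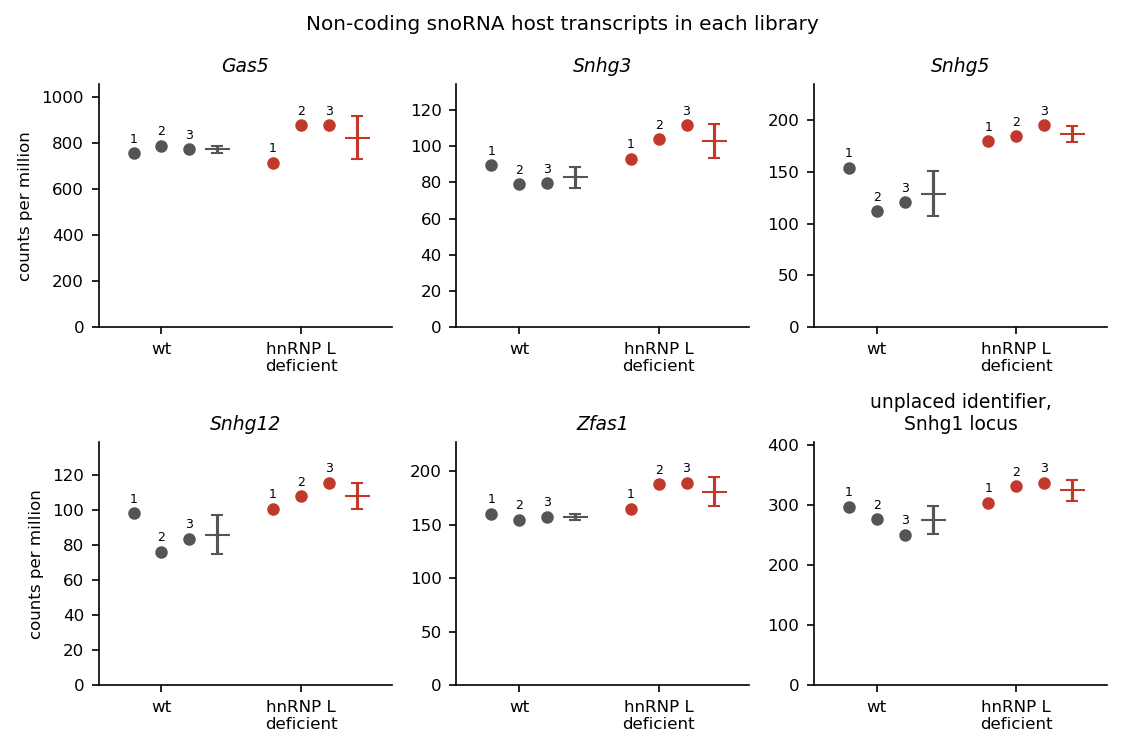
CPM (linear axis from 0) of the 5 measured hosts and of an identifier at the Snhg1 locus in each library, numbered by replicate, with the mean and SD of each genotype beside the points (n = 3). Every deficient library lies above every wt library except for Gas5, where deficient replicate 1 is at 713 CPM and the wt libraries are at 756 to 788.

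Of the 5 measured hosts 1 rose, beside 9.32% of the 14396 genes tested that rose. None fell in edgeR, beside 9.85% of all genes, and none fell at an unadjusted p under 0.05, in DESeq2 or in limma-voom. Rises were called for 3 of the 5 in DESeq2, beside 2064 of all 14396 genes. In limma-voom with sample weights they were called for 4, beside 2576 of all 14396 genes. In edgeR without wt replicate 2 a rise was called for 1, beside 1672 of 14651 genes. In 4 of the 5 every deficient library was above every wt library, as in 22.7% of all tested genes. The log2 fold changes ran from 0.09 to 0.53 with a median of 0.31, beside a median of -0.03 over all tested genes, and all 5 were above 0. With total-count scaling the median of all genes moved to -0.10 and the log2 fold change of Gas5 to 0.02. In these bulk samples fewer cells of a type and less RNA per cell cannot be told apart, and the part of the marker differences given above in these values was not tested.

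Levels were compared between hosts per kilobase of annotated exon, in wt. Gas5 was at 205 ± 4.24 CPM per kilobase (SD, n = 3), Snhg3 at 83.9 ± 5.94, Snhg5 at 74.5 ± 12.8, Zfas1 at 53.8 ± 1.02 and Snhg12 at 35.7 ± 4.63. Snhg3 and Snhg5, neighbours in this order, overlapped over the wt libraries, with ranges of 80.2 to 90.7 and 64.8 to 89.0, while the other neighbours did not overlap. The exon lengths, from 986 bases for Snhg3 to 3760 for Gas5, are those of M21 and count retained introns, so the order depends on the annotation. The 5 hosts together held 1258, 1210 and 1215 CPM in wt and 1252, 1460 and 1489 CPM in deficient libraries, and Gas5 made up 57.0% to 65.1% of that sum.

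At the Snhg1 locus a single identifier, ENSMUSG00000097188, shared its exon bin unit with all 8 snoRNA genes that lie inside Snhg1 (chr19:8723475-8726443). It has no entry in M21, so it was not placed and not counted as a member, and it was chosen after its values were seen. Its level was 297, 276 and 251 CPM in wt and 304, 332 and 337 CPM in deficient libraries. The groups did not overlap and lay closest between wt replicate 1 and deficient replicate 1 (log2 fold change 0.24, SE 0.090, edgeR adjusted p = 0.0982).

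Some hosts share a promoter region with a gene on the other strand, and the nearest start within 1000 bases was examined. Slc3a2, the heavy chain of amino acid transporters, starts 106 bases from Snhg1. It was at 160, 153 and 150 CPM in wt and at 222, 223 and 222 CPM in deficient libraries. All deficient values were well above the controls, and Slc3a2 rose (log2 fold change 0.53, SE 0.064, edgeR adjusted p = 0.0102). Zbtb37, 427 bases from Gas5, was at 13.5, 5.15 and 10.1 CPM in wt and at 10.4, 10.5 and 9.71 CPM in deficient libraries (0.09, SE 0.32, edgeR adjusted p = 0.867). Znfx1, 81 bases from Zfas1, was at 41.8 to 45.7 CPM in wt and 44.6 to 48.6 CPM in deficient libraries (0.10, SE 0.076, edgeR adjusted p = 0.372). The genotypes overlapped for both of these genes. Rcc1, which shares exons with Snhg3, was at 282, 236 and 239 CPM in wt and at 361, 336 and 349 CPM in deficient libraries and rose (0.47, SE 0.092, edgeR adjusted p = 0.0213). The call of Slc3a2 was lost when wt replicate 3 or any deficient replicate was left out.

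**Figure D2:**
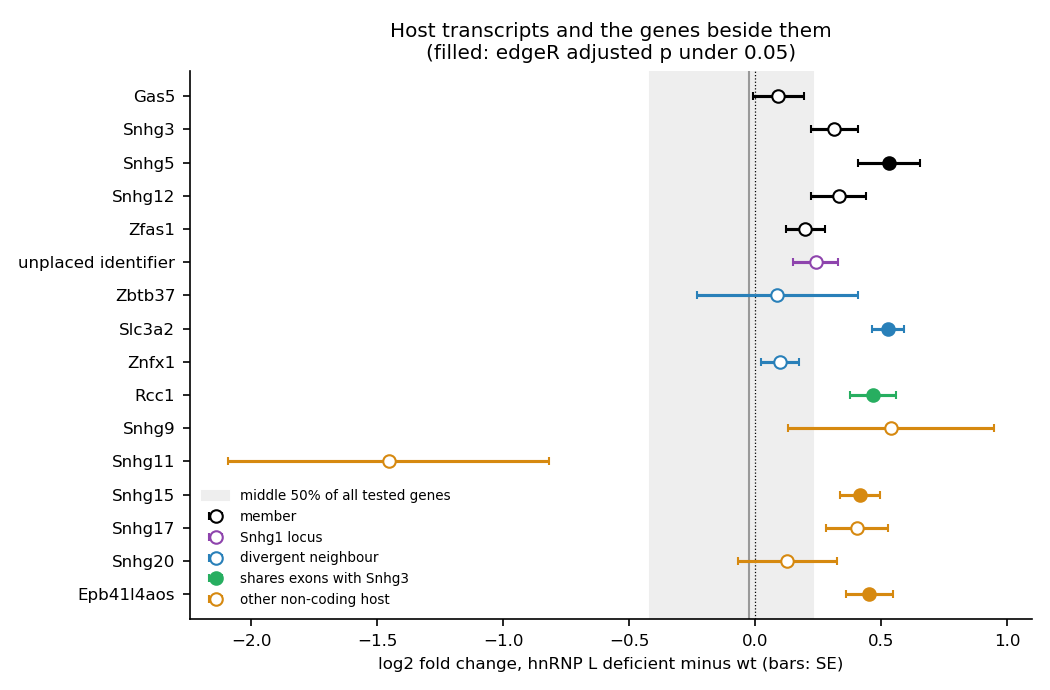
Log2 fold change (hnRNP L deficient minus wt) with its standard error for the measured hosts, the identifier at the Snhg1 locus, the divergent neighbours, Rcc1 and the other non-coding hosts tested. Filled points passed an adjusted p under 0.05 in edgeR, the grey band holds the middle 50% of all tested genes (-0.42 to 0.23) and the grey line is their median. Snhg5, Slc3a2, Rcc1, Snhg15 and Epb41l4aos are filled.

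The 5 genes of at least 10 CPM whose log2 level over the 6 libraries was most like the mean of the measured hosts were Pnn (Pearson r = 0.996), Alg6 (0.995), Enpp4 (0.993), Abhd2 (0.991) and Klhl42 (0.989), among 8645 genes compared. Pnn, a splicing protein that associates with the exon junction complex, averaged 311 CPM in wt and 375 CPM in deficient libraries. None of the 5 passed in edgeR, with log2 fold changes from 0.16 to 0.31. The centred mean of the hosts was -0.03, -0.23 and -0.18 on the log2 scale in wt replicates 1 to 3 and 0.02, 0.18 and 0.24 in deficient replicates 1 to 3, so wt replicate 1 and deficient replicate 1 lay between the other libraries. These points share library size and composition, and the correlations are descriptions.

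Exon bins were available for the 3 wt libraries and for deficient replicates 2 and 3. The absent deficient replicate 1 had the lowest gene count level of the deficient libraries for every measured host. For Gas5 it lay below all wt libraries, at 713 CPM. Separation of the genotypes in bins therefore leaves out the deficient library that was nearest to wt or below it. Bins are the disjoint exon pieces of overlapping genes merged into a unit, and usage is the level of a bin relative to the rest of its unit. For Gas5 the 73 deposited bins equalled in number the disjoint exon pieces in M21, as did the 40 bins of the unit that Snhg3 shares with Rcc1 and Snora73a, and these bins were placed by order, a step taken after the values were seen. The bins of Snhg5 (5, against 19 pieces), Snhg12 (22, against 26) and Zfas1 (19, against 20) were not placed and are given by number.

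Along Gas5 the reads began at its downstream start. The bins upstream of it, from chr1:161034422 to chr1:161035162, held between 0 and 69 reads in any library. Bin 8 (chr1:161035168-161035171), at the end of the pyrimidine run shown above, held 18 to 62 reads, bin 9 (chr1:161035172-161035177) 508 to 773 and bin 13 (chr1:161035188-161035194) 2424 to 4204. Read coverage thus rose within a few bases of that start in both genotypes.

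The exons and introns of Gas5 were also visible. The 22 bins in exons of most of the 25 annotated Gas5 transcripts had a median of 6272 reads over the libraries, and the 51 bins held by fewer transcripts, which include introns that some transcripts retain, a median of 1207. The exon bin 17 was at 58.5, 68.7 and 60.4 CPM in wt and at 71.5 and 72.9 CPM in deficient libraries. The bin 15 that holds the snoRNA Gm26224 in the preceding intron was at 5.87, 5.30 and 6.91 CPM in wt and at 8.22 and 7.42 CPM in deficient libraries. Bin 37, which holds Snord78, was at 27.7, 31.3 and 27.1 CPM in wt and at 26.8 and 27.2 CPM in deficient libraries. Bins 15 and 17 were thus higher in both deficient libraries than in any wt library, as were 19.6% of all tested bins of the series, whereas the genotypes overlapped at Snord78. Bin 17 was not typical, since this held for 4 of the 22 exon bins and for 29 of the 51 others. Near Snord78, bins 36, 38 and 39 were lower in both deficient libraries than in any wt library, at 91.9%, 95.6% and 94.0% of wt. In Gas5 as a whole 9 tested bins were lower in this way and 33 higher, beside 18.1% and 19.6% of all tested bins. Neighbouring bins share reads. Summed over bins, in which a read can count more than once, the exon bins were at 894 to 1103 CPM in wt and 1034 to 1040 CPM in deficient libraries, and the other bins at 647 to 706 and 734 to 735 CPM.

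**Figure D3:**
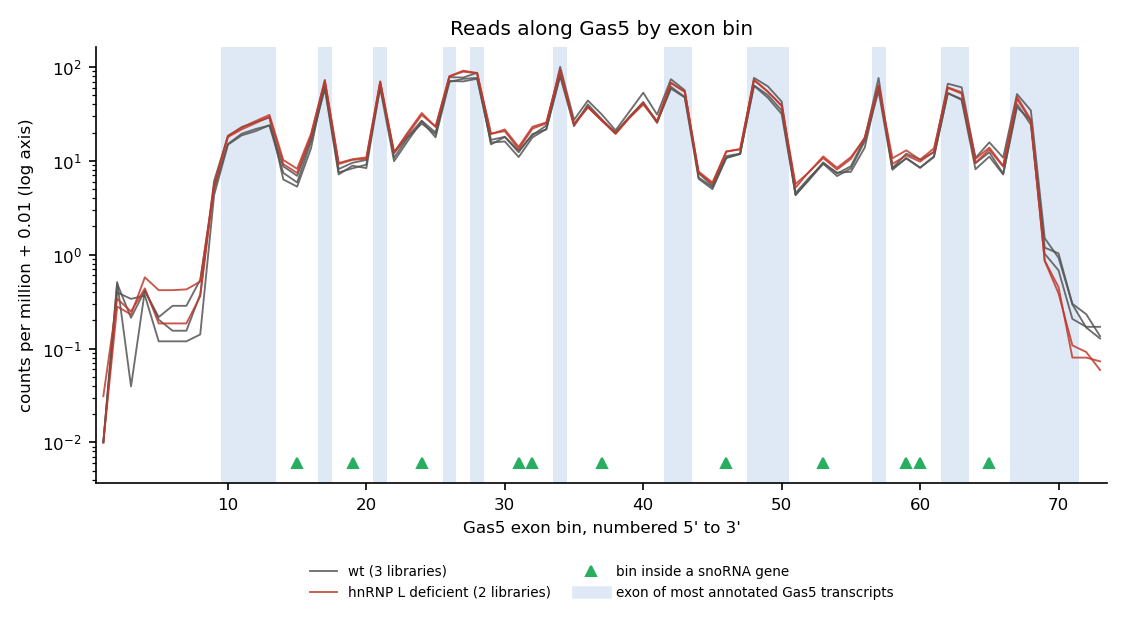
CPM plus 0.01 (log axis) in each Gas5 exon bin, numbered 5′ to 3′, for 3 wt and 2 hnRNP L deficient libraries. Shaded bins are exons of most annotated transcripts and triangles mark bins inside a snoRNA gene. Levels are under 1 CPM up to bin 8 and rise from bin 9 onward, and the deficient libraries fall below the wt libraries in bins 69 to 73 at the 3′ end.

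Of 155 tested bins in the 5 units none was called by diffSpliceDGE at an adjusted p under 0.05, beside 0.0288% of 176996 bins in all, and limma diffSplice called none either. An unadjusted p under 0.05 was reached by 4 bins in diffSpliceDGE, beside 1.02% of all bins. In limma it was reached by 11, and the share of all bins in limma was not computed, so this count has no comparison. Of the 4, 2 were in Gas5 and 2 in Zfas1, and each has an adjusted p of 1.00 in edgeR. Without deficient replicate 2, or without deficient replicate 3, 0 bins reached an unadjusted p under 0.05 in diffSpliceDGE.

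In Gas5 bins 70 and 71 are single bases at the annotated 3′ end (chr1:161038534 and chr1:161038535). Bin 70 held 104, 95 and 92 reads in wt and 46 and 63 in deficient libraries, and bin 71 held 29, 30 and 27 reads in wt and 12 and 10 in deficient libraries. Their log2 usage changes were -1.20 and -1.71. All 5 bins from 69 to 73 were lower in both deficient libraries than in any wt library, at 32.7% to 69.5% of the wt mean, and 18.1% of all tested bins were likewise lower in both. These adjacent bins of 1 or 2 bases share reads and are not separate results. Bin 68 just upstream was at 24.3 to 34.4 CPM in wt and 26.7 to 27.3 CPM in deficient libraries.

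In Zfas1 bins 5 and 6 had log2 usage changes of 0.55 and 0.60. Bin 6 held 3.18, 2.50 and 4.39 CPM in wt and 5.22 and 6.37 CPM in deficient libraries, 173% of wt, and bin 5 was at 167% of wt. Bins 7 and 10 were at 155% and 146% of wt, and bins 9, 11 and 16, which had the most reads of Zfas1, at 107% to 110%. Both deficient libraries were above all wt libraries in 8 of the 19 bins of Zfas1 (5 to 10, 12 and 17), beside 19.6% of all tested bins. None of these usage changes was called.

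The rise of Snhg5 was spread over the transcript. Its 5 bins were at 133% to 149% of wt, and all were higher in both deficient libraries than in any wt library, beside 19.6% of all tested bins. The bins come from 1 transcript unit and share reads. Their usage changes were between -0.09 and 0.07 on the log2 scale. Bin 1 was at 46.5, 39.4 and 36.1 CPM in wt and at 56.9 and 56.1 CPM in deficient libraries, and bin 5 at 28.1 to 38.6 CPM in wt and at 45.4 and 50.8 CPM in deficient libraries. Bin 2 had the largest change in usage, -0.09 (SE 0.18), with an unadjusted p of 0.695 in diffSpliceDGE, the smallest of the 5.

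In Snhg3 the last exon of most transcripts (bins 27 to 29, chr4:132351934-132352243) had the most reads of the host. Bin 29 held 3666, 3617 and 4447 reads in wt and 5165 and 6535 in deficient libraries. Few reads reached the annotated start of Snhg3 shown above. Bin 40 (chr4:132353664-132353686), which holds that start and the marked run, had 4 to 27 reads in any library. Bin 39 (chr4:132353634-132353663) had 40 to 81 and bin 38 (chr4:132353606-132353633) 649 to 1092. The 7 bins in exons of most of its 5 transcripts summed to 106 to 123 CPM in wt and to 137 and 149 CPM in deficient libraries, or 123% of wt, and those of fewer transcripts to 139%. The 25 bins of the unit outside Snhg3, nearly all of Rcc1, were at 133% of wt, and usage in this unit is relative to both genes. The smallest unadjusted p in this unit was 0.0927, for bin 24, an exon that Snhg3 shares with Rcc1 (usage change -0.73, SE 0.26, by diffSpliceDGE), and the largest change, 0.80, was in bin 22, which belongs to Rcc1. The 22 bins of Snhg12 had a median of 126% of wt, with 18 of them higher in both deficient libraries than in any wt library, beside 19.6% of all tested bins. Its bin 2 had the smallest unadjusted p in diffSpliceDGE, 0.239 (usage change 0.31), and its bin 22, with 12 to 19 reads, the largest change, -0.82. The unit of the unplaced identifier had a median of 118% of wt over 26 bins.

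**Figure D4:**
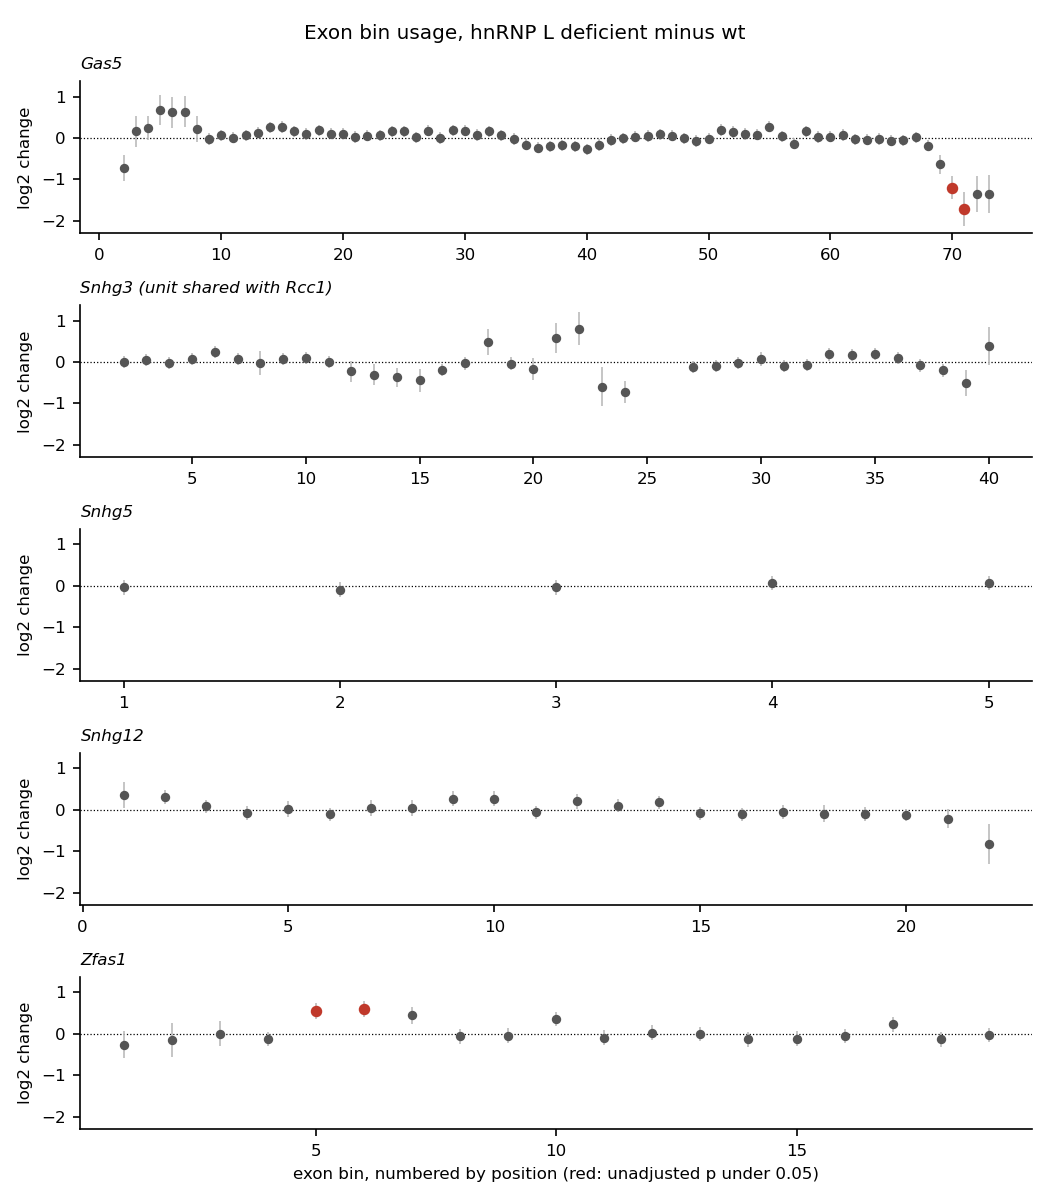
Log2 change in usage of each tested bin (hnRNP L deficient minus wt, with standard error) for the 5 units that hold a measured host. Red bins reached an unadjusted p under 0.05 in diffSpliceDGE, which were Gas5 bins 70 and 71 and Zfas1 bins 5 and 6, and none passed after adjustment.

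The remaining genes of the pathways around these hosts were described from lists chosen with earlier results of these data known. Of all tested genes 9.32% rose and 9.85% fell, with a median log2 fold change of -0.03, and each list is given beside these values. Over the lists 24 genes rose and 4 fell, and none did so when wt replicate 3 or any deficient replicate was left out. Of 13 other non-coding snoRNA hosts 7 had counts and 6 were tested. Epb41l4aos was at 27.3, 23.9 and 23.5 CPM in wt and at 33.0, 35.3 and 33.9 CPM in deficient libraries and rose (log2 fold change 0.45, SE 0.093, edgeR adjusted p = 0.0233). Snhg15 was at 26.4, 26.8 and 27.3 CPM in wt and at 34.0, 36.7 and 36.8 CPM in deficient libraries and rose (0.42, SE 0.079, edgeR adjusted p = 0.0200). The other 4 did not pass, and the median over the 6 was 0.41.

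Most snoRNAs of the mouse lie in introns of protein-coding genes, many for ribosomal proteins. Of 46 such hosts 4 rose, a share near the 9.32% of all tested genes. Wdr43, a factor of the small ribosomal subunit processome, and Nop56, a core protein of box C/D particles, had log2 fold changes of 0.51 (SE 0.13) and 0.39 (SE 0.10), with edgeR adjusted p-values of 0.0374 and 0.0425. Rcc1 and Ppan were the others. The other 42 did not pass, and the median over the 46 was 0.05, beside -0.03 over all genes. Of 21 translation factors and other genes with 5′TOP mRNAs, Eef1d rose (0.46, SE 0.11, edgeR adjusted p = 0.0309), and the median was 0.09. Eef1b2, Eef2, Rack1, Tpt1 and Naca were in both lists.

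The proteins that bind snoRNAs or assemble them into particles included 8 that rose and 1 that fell, of 17 tested, beside 9.32% and 9.85% of all genes, with a median log2 fold change of 0.36. Ruvbl2, an ATPase of the assembly complex, rose from 230 to 283 CPM in wt to 373 to 412 CPM in deficient libraries (0.57, SE 0.099, edgeR adjusted p = 0.0167). Naf1, an assembly factor of box H/ACA particles, and Nufip1, one of box C/D particles, rose by 0.56 (SE 0.15) and 0.52 (SE 0.10), with edgeR adjusted p-values of 0.0416 and 0.0205. Pih1d1, a subunit of the R2TP assembly complex, was at 49.5, 63.1 and 56.2 CPM in wt and at 39.7, 40.0 and 37.9 CPM in deficient libraries and fell (-0.52, SE 0.10, edgeR adjusted p = 0.0207). In 16 of the 17, every deficient library was above every wt library, beside 22.7% of all tested genes.

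Among 20 factors of NMD 5 rose and 1 fell, beside 9.32% and 9.85% of all genes, with a median log2 fold change of 0.24 beside -0.03. Upf1, the central helicase, was at 251, 217 and 251 CPM in wt and at 326, 303 and 300 CPM in deficient libraries (0.37, SE 0.087, edgeR adjusted p = 0.0309). Smg9 and Smg8, which regulate the kinase of Upf1, rose by 0.48 (SE 0.094) and 0.40 (SE 0.084), with edgeR adjusted p-values of 0.0211 and 0.0239. Smg6, the endonuclease of the pathway, was at 70.7, 67.6 and 73.5 CPM in wt and at 57.9, 57.8 and 56.8 CPM in deficient libraries and fell (-0.30, SE 0.065, edgeR adjusted p = 0.0266). The groups did not overlap for any of these 4 genes, which were named because they passed. Of the 20 factors, 12 had every deficient library above every wt library and 1 had every one below, beside 22.7% of all tested genes each way.

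Of 12 stress and repair transcripts known to be degraded by NMD, 10 were tested and 3 rose, beside 9.32% of all genes. None fell, beside 9.85% of all genes. The median log2 fold change was 0.45 beside -0.03, and 8 of the 10 were above 0. Map3k14 (-0.62) and Gadd45b (-0.59) were below 0, and neither passed in edgeR. Atf4, a transcription factor of the integrated stress response, was at 306, 280 and 267 CPM in wt and at 382, 391 and 423 CPM in deficient libraries (0.49, SE 0.085, edgeR adjusted p = 0.0168). Trib3, a target of Atf4, rose from 0.784 to 1.31 CPM in wt to 3.35 to 4.31 CPM in deficient libraries (1.93, SE 0.28, edgeR adjusted p = 0.0138). Cdkn1a, the cell cycle inhibitor p21 and a p53 target, rose from 2.20 to 6.47 CPM in wt to 57.0 to 85.9 CPM in deficient libraries (4.26, SE 0.47, edgeR adjusted p = 0.0125).

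**Figure D5:**
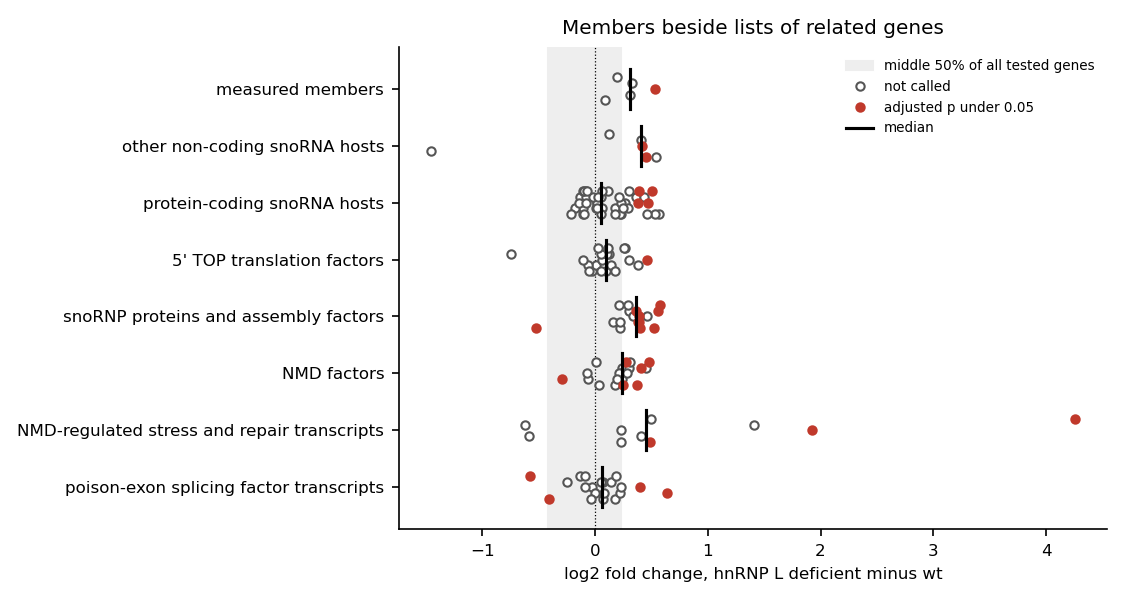
Log2 fold changes of the measured hosts and of lists of related genes (points, filled where edgeR's adjusted p was under 0.05, black bar for the median of each list, grey band for the middle 50% of all tested genes). The measured hosts have a median of 0.31, the other non-coding hosts 0.41, the protein-coding hosts 0.05 and the genes with 5′TOP mRNAs 0.09.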

How the data were processed

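RNA-seq libraries (stranded mRNA kit, poly(A)-selected, paired ends) of Lin-cKit+ FL cells were used from 3 wt and 3 hnRNP L deficient embryos. The authors aligned reads to GRCm38 with TopHat2 2.0.10 and deposited counts per Ensembl gene (HTSeq) and per exon bin (DEXSeq script) without normalization. The Ensembl release, the strand setting and the handling of overlaps are not given in the sources used here. Bins of deficient replicate 1 were not analysed here. Between 39.8% and 44.7% of the HTSeq tally per library was in its class of non-unique alignments, which was not counted to genes. The share of reads was not derived.

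Gene counts were tested with edgeR 4.0.16 in R 4.3.3 (TMM, default filter, robust quasi-likelihood test, Benjamini-Hochberg adjustment over 14396 genes, calls at 0.05), without pairing. Usage was tested with diffSpliceDGE for bins that averaged 10 or more reads. Each standard error was derived from the fold change and the F statistic. Both steps were tested on simulated data. Alternatives used DESeq2 1.42.0, limma 3.58.1, other scalings, filters and thresholds, and left out each library. Those for intronic snoRNA genes and for the identifier at the Snhg1 locus were added after seeing the data. Depth gives at most 0.0540 CPM for 3 reads, a counting error only, and the spread between embryos limits precision.

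Members and lists were chosen with earlier results of these data known. Named genes are the members, their divergent neighbours, Hnrnpl, per list up to 3 largest rises and 3 largest falls among called genes (otherwise the smallest p), and the 5 most alike genes. Gm17300, Rcc1, Ppan and the identifier at the Snhg1 locus were named in addition, after their values were seen. Alike genes had at least 10 CPM and used log2 of CPM plus 0.1.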

Additional observations from a re-analysis of the deposited data

How the results depend on the processing

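No log2 fold change of a measured host changed sign under any of the 13 alternatives. The number of measured hosts that rose was 3 in DESeq2, 4 in limma-voom with sample weights and 2 without the filter on low counts, and 0 to 3 when a library was left out, with 0 without wt replicate 3 or any deficient replicate and 3 without wt replicate 1. Listed genes of the related pathways that rose numbered 24, 45 in DESeq2, 55 in limma-voom and 0 to 51 when a library was left out, and those that fell 4 and 0 to 5. Of the divergent neighbours 0 to 1 rose when a library was left out. Over all genes 1341 rose and 1418 fell, 2064 and 2236 in DESeq2, 2576 and 2774 in limma-voom, 1066 and 1751 with total counts, 2312 and 2479 without wt replicate 1, 5 and 0 without wt replicate 3, and 15 and 2, 8 and 0, and 7 and 0 without deficient replicates 1, 2 and 3. The cause was not tested, beyond the fewer libraries. No paired analysis was possible because the labels give no replicate numbers shared between the genotypes, and the embryo numbers share a first part, whose meaning is not stated, only between wt replicate 1 and deficient replicate 1 and between deficient replicates 2 and 3, the deficient libraries with bin counts.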

Other observations

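The annotated snoRNA genes inside the hosts were counted as genes of their own in part. Those within the exon bin units of Gas5, Snhg12 and Zfas1 had 0 reads in every library. Snora73b of Snhg3 was at 7.18, 5.72 and 7.29 CPM in wt and at 7.35, 8.02 and 8.29 CPM in deficient libraries (log2 fold change 0.23, SE 0.16, edgeR adjusted p = 0.337). Its values in the deficient libraries lay just above those in wt. Snora24 of Snhg8 was at 0.720, 1.23 and 0.798 CPM in wt and at 0.761, 0.490 and 0.737 CPM in deficient libraries. Of the 5 such genes tested none passed in edgeR, at an unadjusted p under 0.05, in DESeq2 or in limma-voom. Libraries selected for poly(A) tails do not measure mature snoRNAs, which have none.

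Transcripts of splicing factors that carry poison exons, whose inclusion leads to decay by NMD, were 20 in number. Hnrnpll, the paralog of the deleted gene, was at 145, 128 and 143 CPM in wt and at 221, 213 and 213 CPM in deficient libraries (0.64, SE 0.075, edgeR adjusted p = 0.0102). Snrpb, a core protein of spliceosomal particles, rose by 0.39 (SE 0.076, edgeR adjusted p = 0.0205). Ptbp2 and Tia1 fell, with log2 fold changes of -0.58 (SE 0.13) and -0.41 (SE 0.082) and edgeR adjusted p-values of 0.0286 and 0.0220. The remaining 16 did not pass, and the median of the list was 0.06, beside 9.32% of all genes that rose, 9.85% that fell and a median of -0.03.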
